A study of Homo sapiens with 16 samples.

Results

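The Eph receptors and the ephrins, a family of receptor tyrosine kinases and their membrane-bound ligands, were followed through 6 lines of SW480, a colon adenocarcinoma cell line in which the level of the LIM protein Ajuba had been changed. The genes were chosen by symbol: EPHA1, EPHA2, EPHA4, EPHB2, EPHB3, EPHB4 and EPHB6 among the receptors, and EFNA1, EFNB1 and EFNB2 among the ligands. These are 10 of the 66023 genes in the count table. The other 12 genes of the family are summarised after them. EPHA2 also belonged to the proteins that the study measured by mass cytometry, which is not used here. RNA-seq of polyadenylated RNA was available for 16 samples. Parental SW480 (n = 2) was not transduced. shScrambled (n = 2) carried a lentiviral control shRNA that the study names as non-mammalian. shAjuba1 (n = 3) carried an shRNA against the coding region of Ajuba and shAjuba2 (n = 3) an shRNA against a non-coding region of it. Ajuba OE (n = 3) carried a lentiviral overexpression construct with a CMV promoter and FLAG and HA tags, and Control (n = 3) the same construct after the Ajuba sequence had been excised. All 5 transduced lines were selected with puromycin, and all 6 lines were used between passages 10 and 18. Whether a line was a pool or a clone is not given in the sources used here. The study's results call the samples of a line technical replicates. Every p-value below therefore measures the spread between such samples of 1 line and not between independent transductions.

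Eph receptors are activated when they meet an ephrin on a neighbouring cell, so both partners are membrane proteins and the signal depends on cell contact. A-type ephrins are held in the membrane by a lipid anchor, B-type ephrins span it, and both the receptor-bearing and the ephrin-bearing cell can respond, most often with a change in adhesion, repulsion or movement. In the intestinal crypt EPHB2 and EPHB3 are known targets of β-catenin and TCF and help to keep proliferating and differentiated cells in their places. EPHA2 is abundant in many carcinomas. EPHB6 lacks kinase activity and works through its partner receptors. Ajuba is an adaptor at cell junctions and in the nucleus that is known to restrain the Hippo kinase LATS, which holds back YAP and its DNA-binding partner TEAD.

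Total counts ranged from 30132396 to 69684675 per sample. AJUBA checked the labels. Its mean level was 82.5 ± 1.26 RPM (SD, n = 2) in shScrambled, 50.1 ± 3.12 (n = 3) in shAjuba1 and 62.0 ± 5.93 (n = 3) in shAjuba2, where RPM is reads per 1000000 counted reads. It was 93.2 ± 6.34 RPM (n = 3) in Control and 525.9 ± 56.1 (n = 3) in Ajuba OE. The fall passed the test in shAjuba1 (log2 fold change -0.73, adjusted p = 2.19e-05) but not in shAjuba2 (-0.46, adjusted p = 0.0773), and the increase passed it in Ajuba OE (2.56, adjusted p = 7.69e-05). Lines were compared with the quasi-likelihood test of edgeR, p-values were adjusted by Benjamini-Hochberg over every gene in the fit, and a gene was called when its adjusted p was under 0.05. Markers of colon epithelium summed to between 2901 and 7008 RPM per sample, although KRT20, one of its 8 genes, stayed below 1 RPM in every line. KRT8 and KRT18 led this sum, with means over the 6 lines of 2509 and 2154 RPM. KRT19 followed at 448 RPM, and CDH1 and CDX2 stood at 17.1 and 14.4. Markers of leukocytes summed to at most 3.00 RPM, of endothelium to at most 5.41 and of fibroblasts to at most 26.8. Replicate 2 of shAjuba2, Control and Ajuba OE stood apart from the other samples of its line, and calls of the 10 genes against shScrambled or Control that depend on these samples are given with and without them.

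The sequences shown are the 250 bases before the start of the MANE Select transcript of 3 receptors, read from hg38 at GENCODE v44 positions. EPHA2 and EPHB4 are shown because their levels moved together across the lines, and EPHA1 because its mean was highest in Ajuba OE. The EPHA2 window lies at chr1:16156070-16156319 on the minus strand, that of EPHB4 at chr7:100827524-100827773 on the minus strand and that of EPHA1 at chr7:143408857-143409106 on the minus strand. Capitals mark matches on either strand to 6 short motifs, which were CTTTGA (TCF/LEF), CATTCC (TEAD), TGACGTCA (CRE), TGANTCA (AP-1), GGGCGG (GC box) and CACGTG (E-box).
EPHA2: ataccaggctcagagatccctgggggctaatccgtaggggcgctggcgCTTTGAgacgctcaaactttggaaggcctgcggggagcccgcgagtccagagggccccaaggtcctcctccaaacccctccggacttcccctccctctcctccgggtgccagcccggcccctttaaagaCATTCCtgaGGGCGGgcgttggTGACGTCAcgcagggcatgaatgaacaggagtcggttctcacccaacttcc
EPHB4: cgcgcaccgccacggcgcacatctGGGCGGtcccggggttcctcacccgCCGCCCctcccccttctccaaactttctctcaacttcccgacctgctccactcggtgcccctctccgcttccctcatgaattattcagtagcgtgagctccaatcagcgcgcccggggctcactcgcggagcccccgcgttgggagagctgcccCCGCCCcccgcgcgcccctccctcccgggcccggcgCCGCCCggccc
EPHA1: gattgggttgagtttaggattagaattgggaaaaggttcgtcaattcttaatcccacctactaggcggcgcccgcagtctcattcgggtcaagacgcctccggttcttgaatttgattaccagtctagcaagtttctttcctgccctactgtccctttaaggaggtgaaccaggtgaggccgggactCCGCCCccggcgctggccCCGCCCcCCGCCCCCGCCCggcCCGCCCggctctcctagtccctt
Of the windows of 9 genes, EPHB6 not included, only that of EPHA2 held TCF/LEF, TEAD or CRE letters. The TCF/LEF match began 202 bases before the start, the TEAD match 73 bases and the CRE match 51 bases before it. Among 19061 windows of the same length, 9.1% held the TCF/LEF letters, 9.8% the TEAD letters and 2.5% the CRE letters. A GC box was present in 9 of the 9 windows, against 59.9% of all windows. The 9 windows had a median of 72.8% G and C, against 63.2% over all windows. They ranged from 59.2% for EPHA1 to 84.8% for EPHB2, and the EPHA2 window held 63.2%. The AP-1 and E-box letters, held by 4.7% and 7.9% of all windows, were in none of the 9. A match is a description of letters and not of a bound site.

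Per length of exon, EPHA2 and EFNB1 were the leading genes of the family in these cells, with a mean over the 6 lines of 51.9 and 48.8 RPKM (RPM per kilobase of exon). EPHB6 followed at 13.2 RPKM, EPHB4 at 12.0 and EPHA4 at 9.81. EFNA1 reached 5.74 RPKM, EPHB3 3.37, EPHA1 2.13, EFNB2 1.88 and EPHB2 1.64. The lowest count of any of the 10 genes in any sample was 167, for EFNB2, so that all 10 were tested in every comparison. Of the genes outside the 10, EFNA4 (5.93 RPKM) and EFNB3 (5.80 RPKM) were close to EFNA1, and EPHA10 reached 1.63 RPKM. EPHA5 had no counts in any sample, and EPHA3, EPHA6 and EPHA7 had at most 2.

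**Figure D1:**
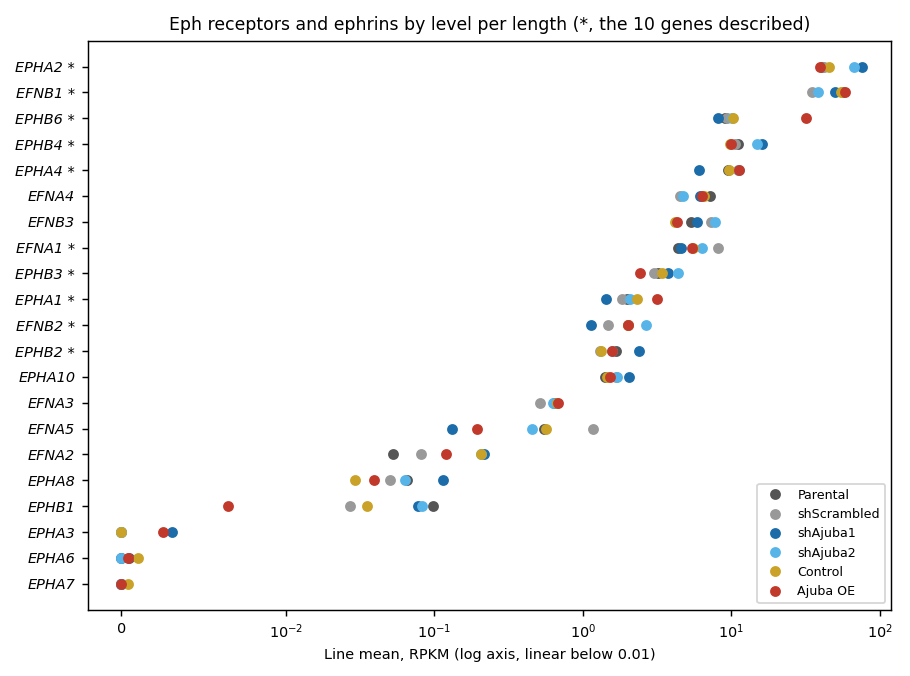
Mean level per length of the Eph receptors and ephrins in each of the 6 SW480 lines, in RPKM on a logarithmic axis that is linear below 0.01, with 1 point per line and an asterisk on the 10 genes described. EPHA2 and EFNB1 lead in all 6 lines, the point of Ajuba OE stands to the right of the others for EPHB6, and EPHA3, EPHA6 and EPHA7 lie at or near 0.

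Each of the 10 genes differed among the 6 lines when these were compared in 1 fit over all 16 samples, against 45.7% of 23597 genes tested. EPHB6 had the largest F value of the 10 (103, rank 140 of 23597), followed by EPHA4 (28.8), EFNB2 (26.9) and EFNB1 (25.3). EPHB3 had the smallest (6.36, adjusted p = 0.00864).

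The first question was what changed when Ajuba was lowered. In shAjuba1 against shScrambled, 9 of the 10 genes passed the test, while 38.4% of 21082 genes did so. The 5 that rose were EPHA2, EPHB2, EPHB3, EPHB4 and EFNB1, where 18.2% of all genes rose, and the 4 that fell were EPHA1, EPHA4, EFNA1 and EFNB2, where 20.2% fell. The median absolute log2 fold change was 0.54 for the 10 genes and 0.30 for all genes tested. In shAjuba2 against shScrambled, 1 of the 10 passed, EFNB2, which rose, while 7.63% of 22446 genes passed, 3.19% higher and 4.44% lower. Here the median absolute log2 fold change was 0.31 for the 10 genes and 0.29 for all. Both comparisons used the same 2 shScrambled samples, so they are not independent of each other. In bulk RNA, a change in the level per cell and a change in the share of cells that express a gene cannot be told apart.

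**Figure D2:**
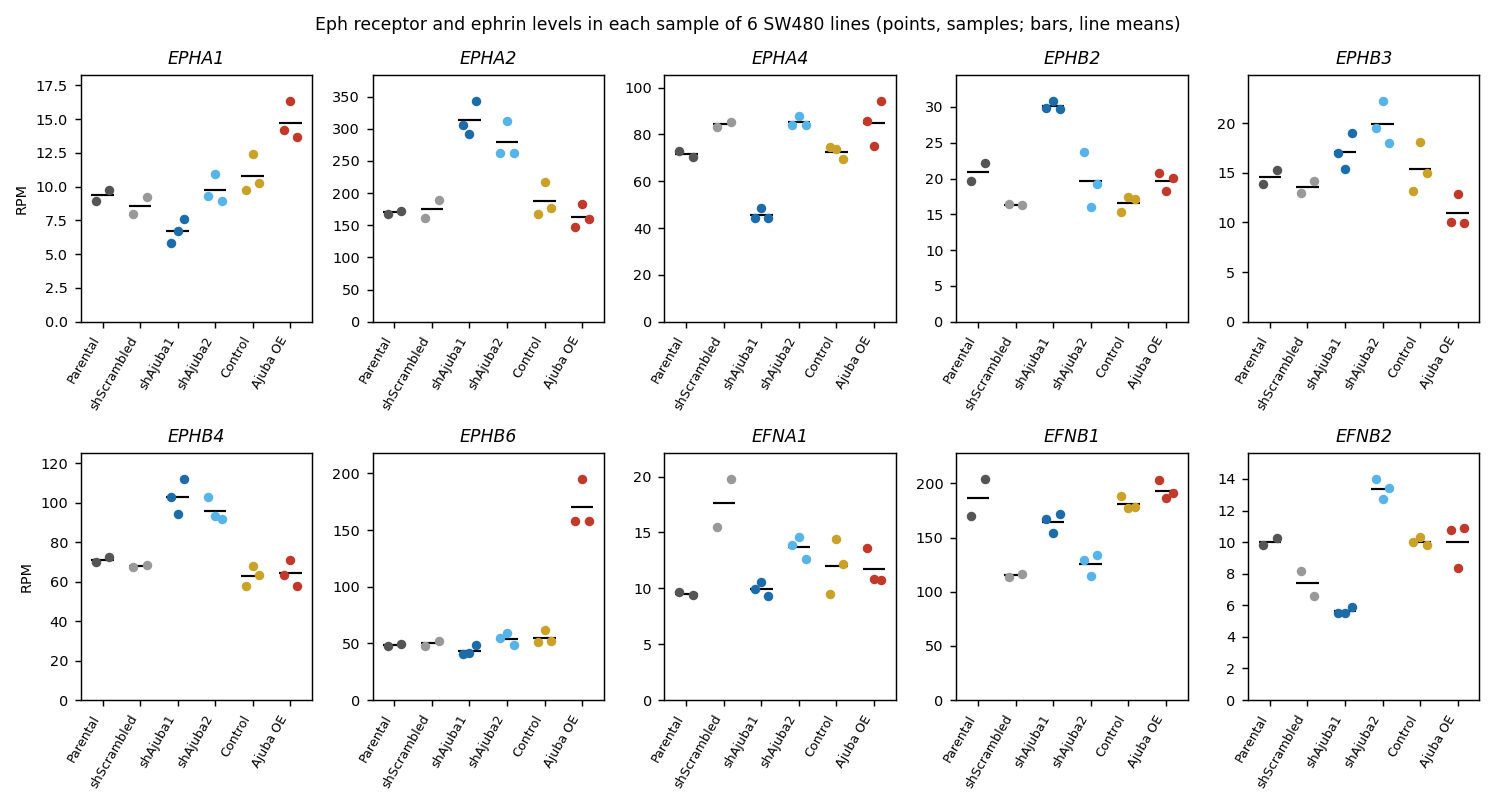
Level of each of the 10 genes in RPM (vertical axes from 0) in every sample of the 6 lines, with points for samples and bars for line means. The shAjuba1 and shAjuba2 samples lie above all others for EPHA2 and EPHB4, the shAjuba1 samples lie below all others for EPHA4, and the Ajuba OE samples lie above all others for EPHB6.

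EPHA2 (chr1:16124337-16156069, minus strand), the receptor with the highest level, was higher in both knockdown lines. Its level was 161 and 189 RPM in shScrambled and 167 and 173 RPM in Parental. In shAjuba1 it was 306, 292 and 343 RPM, and in shAjuba2 it was 262, 312 and 262 RPM. All 6 knockdown samples lay above all 10 others, the highest of which was 218 RPM in Control replicate 2. Against shScrambled it changed by 0.83 ± 0.10 on the log2 scale (SE) in shAjuba1, with an adjusted p of 2.80e-05, and it stayed past the threshold under every alternative tried except a minimum log2 fold change of 1. In shAjuba2 it was 0.63 ± 0.16 with an adjusted p of 0.0527. That value lay close to the threshold and was 0.0063 with DESeq2, 0.0491 with DESeq2's size factors in edgeR and 0.00198 without shAjuba2 replicate 2. The direct comparison of shAjuba1 with shAjuba2 gave 0.22 (95% interval -0.07 to 0.50). Between the 4 control and overexpression lines, neighbours in the order of mean levels (187.6 RPM in Control, 174.9 in shScrambled, 169.9 in Parental and 163.5 in Ajuba OE) overlapped in their samples.

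EPHB4 (chr7:100802565-100827523, minus strand), a receptor best known for its part in vessel formation with ephrin-B2, followed the order of EPHA2 in the knockdown lines. It was 67.4 and 68.4 RPM in shScrambled, 103, 94.4 and 112 RPM in shAjuba1 and 103, 93.0 and 91.9 RPM in shAjuba2. No sample of the other 4 lines exceeded 72.6 RPM. On the log2 scale EPHB4 was higher by 0.59 ± 0.09 in shAjuba1 (adjusted p = 0.000207) and 0.45 ± 0.12 in shAjuba2, where the adjusted p was 0.0581, or 0.027 with DESeq2 and 0.00271 without shAjuba2 replicate 2. Over the 16 samples, which share their lines and depth, log2 levels of EPHA2 and EPHB4 had a Pearson correlation of 0.918, the highest of any pair of the 10 genes. In the EPHB4 gene, 69 bases of exon, 1.07% of its exon length, are shared with SLC12A9 on the opposite strand.

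EPHB3 (chr3:184561785-184582408, plus strand), one of the crypt receptors, was 13.0 and 14.2 RPM in shScrambled, 17.0, 15.4 and 19.0 RPM in shAjuba1 and 19.5, 22.2 and 18.0 RPM in shAjuba2. The knockdown samples all lay above shScrambled, but they overlapped with Control, where replicate 2 had 18.1 RPM. In shAjuba1 the log2 fold change was 0.32 ± 0.11 with an adjusted p of 0.0388, which rose to between 0.0505 and 0.232 under 7 alternatives, among them DESeq2 and the use of Parental as the control line. In shAjuba2 the change was 0.51 ± 0.15 with an adjusted p of 0.084, and 0.021 without shAjuba2 replicate 2.

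EPHB2 (chr1:22710839-22921500, plus strand), the other crypt receptor, separated the knockdown lines. It was 16.4 and 16.3 RPM in shScrambled and 29.8, 30.8 and 29.8 RPM in shAjuba1, where every sample lay above those of all other lines. In shAjuba2 it was 23.8, 16.1 and 19.2 RPM, a range that held the samples of shScrambled. On the log2 scale the difference was 0.87 ± 0.09 for shAjuba1 (adjusted p = 1.41e-05) and 0.22 ± 0.17 for shAjuba2 (adjusted p = 0.459). In the direct comparison, shAjuba1 was higher than shAjuba2 by 0.67 ± 0.14 on the log2 scale (adjusted p = 0.0102).

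EPHA4 (chr2:221418027-221574202, minus strand), a receptor that binds ephrins of both types, was 83.1 and 85.5 RPM in shScrambled and 73.0 and 70.6 RPM in Parental. In shAjuba1 it was 44.3, 48.6 and 44.2 RPM, below every sample of the other lines. In shAjuba2 it was 84.0, 88.1 and 84.2 RPM, on both sides of the higher shScrambled sample. EPHA4 changed by -0.90 ± 0.09 on the log2 scale in shAjuba1 (adjusted p = 4.73e-06, the smallest of the 10 genes) and -0.03 in shAjuba2, with a 95% interval from -0.29 to 0.24. The 2 knockdown lines differed by -0.85 ± 0.10 (adjusted p = 0.000594).

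EPHA1 (chr7:143390289-143408856, minus strand), a low-level A-type receptor, was 7.95 and 9.22 RPM in shScrambled and 5.86, 6.70 and 7.59 RPM in shAjuba1. The shAjuba1 samples lay below those of every other line. The fall was 0.38 ± 0.13 on the log2 scale (adjusted p = 0.0367) and did not hold in 7 of the alternatives, with adjusted p up to 0.291 without shScrambled replicate 2. In shAjuba2 the level was 9.29, 10.9 and 8.95 RPM and the log2 fold change 0.13 (adjusted p = 0.656). EPHA1 shares 82 bases, 1.75% of its exon length, with ZYX on the opposite strand. EPHB6 alone of the 10 genes missed the threshold in shAjuba1 (-0.22 ± 0.10 on the log2 scale, adjusted p = 0.0909), and in shAjuba2 the value was 0.07 (adjusted p = 0.783).

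Calls of the ephrins changed with the line taken as control. EFNB2 (chr13:106489745-106535662, minus strand), the ligand of EPHB4 and of other B-type receptors, lay on opposite sides of shScrambled in the knockdown lines. It was 8.20 and 6.58 RPM in shScrambled, 5.53, 5.54 and 5.88 RPM in shAjuba1 and 14.0, 12.7 and 13.4 RPM in shAjuba2. The shAjuba1 samples were the lowest and the shAjuba2 samples the highest of all 16. The log2 fold change was -0.40 ± 0.13 in shAjuba1 (adjusted p = 0.0286) and 0.81 ± 0.15 in shAjuba2 (adjusted p = 0.021, or 0.00039 without shAjuba2 replicate 2). Neither call held without shScrambled replicate 1, with adjusted p of 0.351 and 0.118. The shAjuba2 call was also lost without shScrambled replicate 2 (adjusted p = 0.278), without shAjuba2 replicate 1 (0.0862) and against Parental (0.35, adjusted p = 0.11). The direct comparison, which uses no shScrambled sample, gave -1.19 ± 0.12 (adjusted p = 0.000195), the largest difference of the 10 genes between the knockdown lines. Of the exon bases of EFNB2, 36.4% are shared with an opposite-strand lncRNA that is not in the count table.

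EFNA1 (chr1:155127876-155134899, plus strand), the main ligand of EPHA2, was 15.5 and 19.8 RPM in shScrambled but 9.65 and 9.39 RPM in Parental. In shAjuba1 it was 9.92, 10.6 and 9.36 RPM, and in shAjuba2 13.9, 14.6 and 12.7 RPM. The shScrambled samples were the highest of all 16. Against shScrambled the log2 fold change was -0.85 ± 0.12 in shAjuba1 (adjusted p = 0.000144) and -0.41 ± 0.16 in shAjuba2 (adjusted p = 0.147, or 0.0159 without shAjuba2 replicate 2). Against Parental it was 0.03 in shAjuba1 (adjusted p = 0.832) and 0.46 in shAjuba2 (adjusted p = 0.0713).

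EFNB1 (chrX:68829021-68842160, plus strand), the ephrin with the highest level and a ligand of EPHB2 and EPHB3, showed the opposite order. It was 113 and 117 RPM in shScrambled but 169.6 and 204 RPM in Parental. In shAjuba1 it was 167, 154 and 172 RPM, and in shAjuba2 129.6, 114 and 134 RPM. Against shScrambled the log2 fold change was 0.50 ± 0.08 in shAjuba1 (adjusted p = 0.000307), whereas against Parental it was -0.21 (adjusted p = 0.0833). In shAjuba2 it was 0.08 against shScrambled (adjusted p = 0.709) and -0.63 against Parental (adjusted p = 0.0393).

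The control lines were compared with each other as background for these values. In shScrambled against Parental, 5 of the 10 genes passed the test, against 30.7% of all genes. EFNA1 rose by 0.89 ± 0.12 on the log2 scale (adjusted p = 3.25e-06) and EPHA4 by 0.23 (adjusted p = 0.0249). EFNB1 fell by 0.70 ± 0.08 (adjusted p = 8.89e-07), EFNB2 by 0.46 and EPHB2 by 0.36. All 3 ephrins thus differed between the lines that could serve as control. In Control against Parental, edgeR called 0 of the 10 genes and DESeq2 also 0, against 0.37% of all genes in edgeR, and 1 of the 10, EPHB2, had an unadjusted p under 0.05.

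With Parental in place of shScrambled, 6 of the 10 genes passed in shAjuba1, against 38.1% of all genes. EPHA2 (0.85), EPHB2 (0.50) and EPHB4 (0.50) rose and EPHA1 (-0.51), EPHA4 (-0.68) and EFNB2 (-0.86) fell, each in the same direction as against shScrambled. In shAjuba2, 2 of the 10 passed, against 8.14% of all genes. These were EPHA2, which rose by 0.65 ± 0.14 (adjusted p = 0.0396), and EFNB1, which fell. Parental and shScrambled differ in the virus and in the selection, and these cannot be told apart from other differences between the 2 lines.

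**Figure D3:**
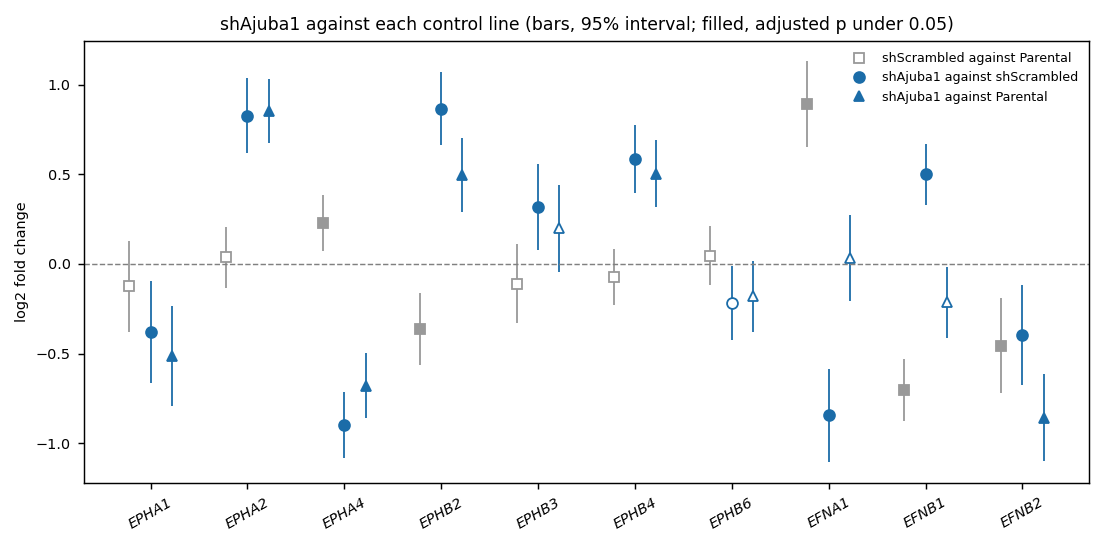
Log2 fold change of the 10 genes for shScrambled against Parental (grey squares), shAjuba1 against shScrambled (circles) and shAjuba1 against Parental (triangles), with 95% intervals and filled symbols for adjusted p under 0.05. Circles and triangles lie on the same side of 0 for all genes except EFNA1 and EFNB1, for which the grey square is farthest from 0.

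The second question was what changed when Ajuba was raised. In Ajuba OE against Control, 1 of the 10 genes passed the test, EPHB6, which rose, while 5.43% of 21140 genes passed, 2.39% higher and 3.03% lower. EPHB6 (chr7:142855061-142871094, plus strand), the receptor without kinase activity, was 50.8, 62.1 and 52.2 RPM in Control and 158, 195 and 158 RPM in Ajuba OE. The 3 Ajuba OE samples lay above all 13 others, whose range was 40.6 to 62.1 RPM. The log2 fold change was 1.70 ± 0.14 (adjusted p = 0.000736), and the adjusted p stayed at or below 0.0101 in every alternative. Against Parental, where 7.15% of all genes passed, EPHB6 (1.87, adjusted p = 0.000344) and EPHA1 (0.71, adjusted p = 0.0211) were called.

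EPHA1 was 9.76, 12.4 and 10.3 RPM in Control and 14.2, 16.3 and 13.7 RPM in Ajuba OE, with no overlap between the lines. Its log2 fold change was 0.51 ± 0.14 with an adjusted p of 0.084, which was 0.0121 with DESeq2 and 0.0229 when replicate 2 of both lines was left out. EPHB3 was 13.2, 18.1 and 15.0 RPM in Control and 10.0, 12.9 and 9.91 RPM in Ajuba OE (log2 fold change -0.43 ± 0.17, adjusted p = 0.22, and 0.0482 when replicate 2 of both lines was left out). EPHA2, which rose in shAjuba1, had a log2 fold change of -0.13 here, with a 95% interval from -0.46 to 0.20. The remaining genes had log2 fold changes between 0.03 (EFNA1) and 0.30 (EPHB2), with adjusted p of at least 0.144.

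**Figure D4:**
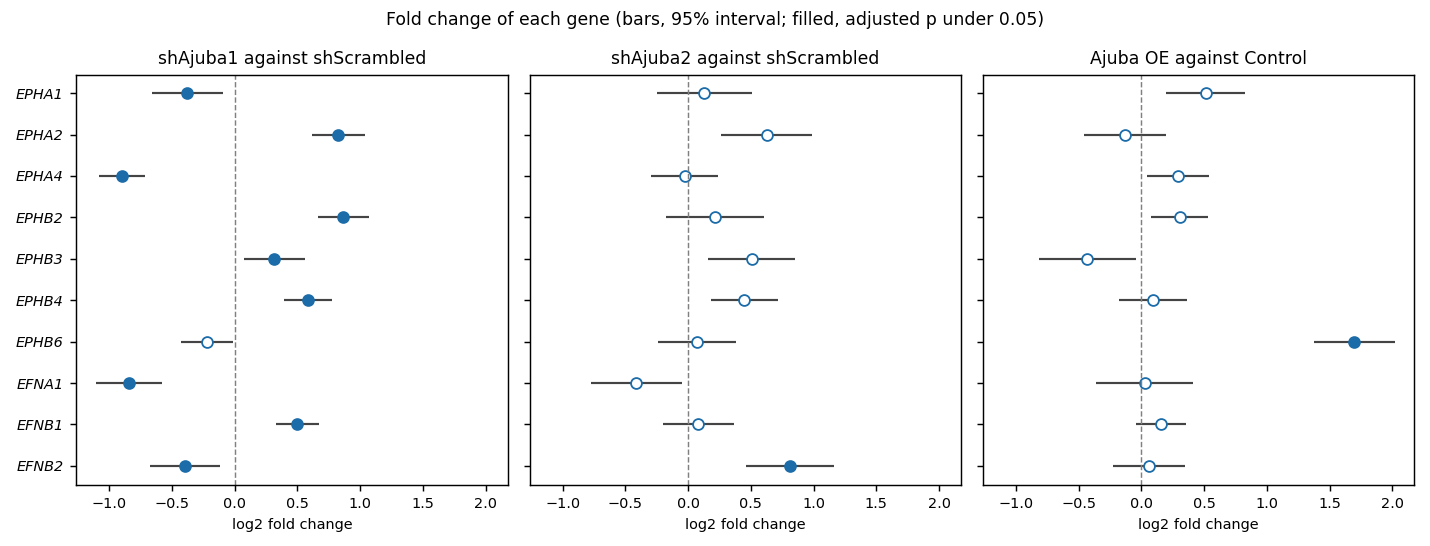
Log2 fold change of the 10 genes in shAjuba1 against shScrambled, shAjuba2 against shScrambled and Ajuba OE against Control, with 95% intervals and filled circles for adjusted p under 0.05. Filled circles mark 9 genes in the first panel, EFNB2 in the second and EPHB6 in the third, where EPHB6 stands at 1.70.

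The genes around EPHB6 were examined after its values had been seen. Of the 11 other tested genes within 100 kb of EPHB6, 8 rose in Ajuba OE against Control and none fell. Over all genes 2.39% rose and 3.03% fell. The median log2 fold change of the 11 was 1.55. Most of the 11 were segments of the T cell receptor β locus that lie close together, so they are not independent neighbours. Those that rose included TRPV6, a calcium channel of epithelia whose gene ends 0.114 kb from EPHB6, and PRSS2, a trypsinogen gene 80.5 kb away. The others were segments of the T cell receptor β locus, among them the constant segments TRBC1 and TRBC2 between PRSS2 and EPHB6. TRBV7-3 of the same locus, 470 kb away, was not called (0.23, adjusted p = 0.665). Mean levels rose from 2.10 ± 0.51 to 7.46 ± 1.06 RPM (SD, n = 3 in each line) for TRPV6 (log2 fold change 1.88, adjusted p = 0.00253) and from 27.5 ± 3.13 to 77.2 ± 11.1 RPM for TRBC2 (1.55, adjusted p = 0.00105). PRSS2 rose from 0.367 ± 0.054 to 4.90 ± 1.85 RPM (3.81, adjusted p = 0.00105). Of the 18 tested genes farther away but within 1 Mb, none rose and 3 fell (MGAM2, FAM131B and TCAF2), with a median of -0.02, and EPHA1, 519 kb away, was among those not called. PRSS2 and the constant segments TRBC1 and TRBC2 have near-identical relatives, so reads may have been divided between copies. The window of 100 kb was set after the values were seen, and the part that the location had in the rise of EPHB6 was not tested.

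**Figure D5:**
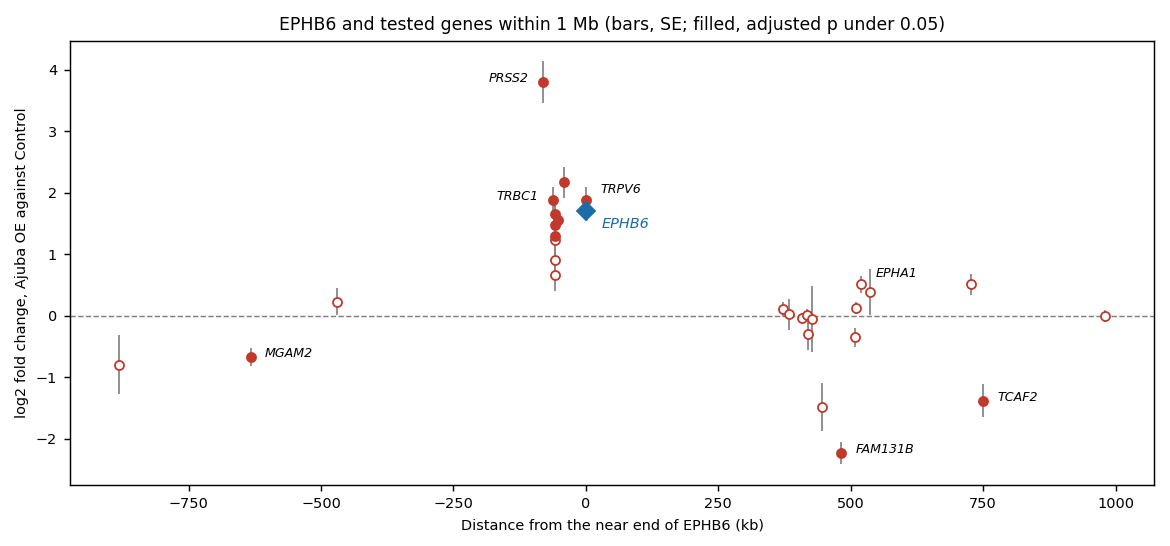
Log2 fold change in Ajuba OE against Control (vertical axis, bars for SE) of EPHB6 (diamond) and of the 29 other tested genes within 1 Mb of it (circles, filled for adjusted p under 0.05), by distance from the near end of EPHB6 in kb. The filled circles above 0 all lie within 100 kb of EPHB6, and those below 0 lie farther away.

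The direct comparison of the knockdown lines called 6 of the 10 genes, against 19.6% of 21600 genes. EPHB2 and EFNB1 were higher in shAjuba1, and EPHA1, EPHA4, EFNA1 and EFNB2 were higher in shAjuba2. EPHA2 (0.22), EPHB4 (0.15), EPHB3 (-0.17) and EPHB6 (-0.27) did not pass. AJUBA itself was lower in shAjuba1 by 0.26 on the log2 scale, with an adjusted p of 0.141.

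Among all 19500 genes compared over the 16 samples, those whose log2 levels were most like EPHA2 were GPR137 (Pearson r = 0.977, Spearman coefficient 0.915), FBXW9 (r = 0.967), PTDSS2 (r = 0.962), PISD (r = 0.959) and TMEM132A (r = 0.955). The samples share their lines and libraries, so these are descriptions of a pattern. Each of the 5 rose in shAjuba1 against shScrambled, by between 0.65 (PTDSS2) and 1.21 (TMEM132A) on the log2 scale. GPR137, PTDSS2 and TMEM132A also rose in shAjuba2. The 5 were chosen for likeness to EPHA2 over these same samples, so their rise follows from the choice and is not a separate result. Within the family, EPHA1 and EPHB6 (r = 0.884) and EPHA2 and EPHB3 (r = 0.797) moved most alike after EPHA2 and EPHB4. The value for EPHA1 and EPHB6 includes Ajuba OE, where both had their highest mean. EPHB6 was at 170 RPM there and between 43.6 and 55.0 RPM in the other lines. EPHA4 and EPHB2 (r = -0.750) moved most in opposite directions.

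Of the 12 other family genes, 8 were tested in shAjuba1 against shScrambled, of which 3 rose and 2 fell, where 18.2% of all genes tested rose and 20.2% fell. EFNA5, a further A-type ligand, fell most. It was 6.72 and 6.66 RPM in shScrambled, 0.837, 0.697 and 0.718 RPM in shAjuba1 and 2.67, 2.97 and 2.16 RPM in shAjuba2. The log2 fold change was -3.15 ± 0.16 in shAjuba1 (adjusted p = 3.12e-08) and -1.41 ± 0.19 in shAjuba2 (adjusted p = 0.00624), where it was the only called gene of the 8 tested. EFNA5 was 3.07 and 3.21 RPM in Parental, so shScrambled stood above it. Against Parental its log2 fold change was -2.07 in shAjuba1 (adjusted p = 7.02e-06), and the call in shAjuba2 was lost (-0.33, adjusted p = 0.259). In Ajuba OE it was 1.32, 0.771 and 1.26 RPM against 3.41, 3.20 and 3.19 RPM in Control (-1.48 ± 0.21, adjusted p = 0.00675), and it was the only one called of 6 tested. The samples of shAjuba1 and of Ajuba OE lay below those of the other 4 lines. EFNB3 fell by 0.33 in shAjuba1 (adjusted p = 0.0415) and EFNA4 rose by 0.42 (adjusted p = 0.0194). EPHA8 (1.15) and EPHB1 (1.47) also rose, but neither had more than 31 counts in any sample. None of these 4 calls held against Parental, where the shAjuba1 values were 0.11 for EFNB3, -0.25 for EFNA4, 0.72 for EPHA8 and -0.37 for EPHB1, so that 3 of them changed sign.

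Eph signalling acts through guanine nucleotide exchange factors, through Src and Abl kinases and through adaptors with SH2 domains, and is limited by proteases and phosphatases. Genes of these kinds, with other effectors, PTK2 and PDZ partners of B-type ephrins, made a list of 53, of which 50 were tested. In shAjuba1 against shScrambled 10 rose and 15 fell, which is 50% of those tested. In shAjuba2 against shScrambled 4 rose and 2 fell (12%), and in Ajuba OE against Control 1 rose and 1 fell (4%). Over all genes tested the shares were 38.4%, 7.63% and 5.43%. Against Parental, 6 rose and 23 fell in shAjuba1 (58%, with 38.1% of all genes) and 1 rose and 2 fell in shAjuba2 (6%, with 8.14%), while 6 rose and 14 fell in shScrambled itself (40%, with 30.7%).

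Among the 8 exchange factors tested, 3 rose and 3 fell in shAjuba1 (18.2% and 20.2% over all genes). TIAM1, an activator of Rac that binds EPHA2 and ephrin-B, fell from 62.8 ± 1.55 RPM (n = 2) in shScrambled to 19.6 ± 0.59 (n = 3) in shAjuba1 (log2 fold change -1.69 ± 0.09, adjusted p = 3.12e-08) and to 44.8 ± 3.70 (n = 3) in shAjuba2 (-0.53, adjusted p = 0.0382). KALRN, which acts downstream of EPHB receptors, fell by 1.44 in shAjuba1. ARHGEF19 rose by 0.79 in shAjuba1 and by 0.66 in shAjuba2, and ARHGEF16 by 0.70 and VAV2 by 0.50 in shAjuba1.

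Of 7 kinases, those of the Src and Abl families with PTK2 added, 2 rose and 2 fell in shAjuba1 (18.2% and 20.2% over all genes). SRC was 32.3 ± 1.25 RPM in shScrambled, 74.5 ± 10.3 in shAjuba1 (log2 fold change 1.19, adjusted p = 3.56e-06) and 57.5 ± 1.04 in shAjuba2 (0.79, adjusted p = 0.00877). In Parental it was 52.2 ± 1.81 RPM, and against it the value was 0.48 in shAjuba1 (adjusted p = 0.00365), with no call in shAjuba2 (0.08, adjusted p = 0.629). In Ajuba OE against Control, FYN rose by 0.54 and ABL2 fell by 0.83, of which the FYN call was lost against Parental (0.31, adjusted p = 0.108). Of the 19 adaptors and effectors, 5 rose and 3 fell in shAjuba1 (18.2% and 20.2% over all genes). PAK1, a kinase activated by Rac, fell by 1.32 in shAjuba1 and by 1.38 in shAjuba2, and GRB10, an adaptor that binds EPHB receptors, rose by 0.68 and 0.60. Against Parental the shAjuba1 calls held at -0.76 for PAK1 and 0.36 for GRB10, and the shAjuba2 calls were lost (PAK1 -0.83, adjusted p = 0.106, and GRB10 0.27, adjusted p = 0.141).

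In shAjuba1 against shScrambled, where 18.2% of all genes rose and 20.2% fell, all called genes of the remaining groups fell. These were 2 of 6 proteases that cut Eph receptors or ephrins (MMP14, -0.82, and ADAM10, -0.50), 2 of 4 phosphatases tested (PTPN13, -0.79, and PTPN1, -0.29) and 3 of 6 PDZ partners of B-type ephrins (GRIP1, -0.91, SDCBP, -0.54, and RGS3, -0.42). None of these groups had a called gene in shAjuba2 against shScrambled or in Ajuba OE against Control. Against Parental, 3 proteases, 3 phosphatases and 4 PDZ partners were lower in shAjuba1 and none was higher, where 38.1% of all genes were called. The shAjuba1 calls of PTPN13 (-0.22, adjusted p = 0.267) and GRIP1 (-0.26, adjusted p = 0.397) were lost there.

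Crypt targets of β-catenin and TCF were counted because EPHB2 and EPHB3 are among them. Of 12 others, 5 rose and 3 fell in shAjuba1 against shScrambled (18.2% and 20.2% over all genes), with SP5 (1.01), MYC (0.94) and TCF7 (0.93) highest and LGR5 (-2.42), SOX9 (-0.30) and CD44 (-0.24) lower. Against Parental the balance turned, with 1 higher and 7 lower in shAjuba1 and 1 higher and 8 lower in shScrambled. Over all genes tested against Parental, 38.1% were called in shAjuba1 and 30.7% in shScrambled. There MYC was higher by 0.46 in shAjuba1, and SP5 (0.01, adjusted p = 0.952) and TCF7 (0.24, adjusted p = 0.0517) were not called. In shAjuba2 against shScrambled, LEF1 rose by 0.54 and LGR5 fell by 4.05, although LGR5 had a mean of only 1.54 RPM in shScrambled. Against Parental none was higher and 4 were lower in shAjuba2, where 8.14% of all genes were called. LEF1 was not called there (0.15, adjusted p = 0.357). In Ajuba OE against Control 4 of 11 rose and none fell, where 2.39% of all genes rose and 3.03% fell. ASCL2, a transcription factor of crypt stem cells, rose from 17.8 ± 0.95 to 43.5 ± 5.77 RPM (1.35, adjusted p = 0.00109), and TCF7, MYC and SP5 rose by 0.86, 0.83 and 0.70. Against Parental 4 were higher and 1 lower in Ajuba OE, where 7.15% of all genes were called. SP5 was not called there (0.42, adjusted p = 0.155). EPHB2, at 0.30 ± 0.10 (adjusted p = 0.144), and EPHB3, at -0.43 ± 0.17 (adjusted p = 0.22), were not called in Ajuba OE against Control.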

How the data were processed

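RNA was sequenced as stranded TruSeq mRNA libraries with 50 bp paired-end reads on a NovaSeq6000. The authors aligned reads to hg38 (GRCh38) with HISAT2 and counted read pairs over exons per gene with featureCounts, and deposited the raw counts. Tool versions, the annotation release and the strand option are not given in the sources used here. Counts with Ensembl IDs were joined to GENCODE v44, which held 56434 of the 66023 IDs and 99.8% of counts. RPM is the count per 1000000 of the column total, and RPKM divides it by the union of exons in kb. Groups came from the sample labels. Each pair of lines was fitted alone in edgeR 4.0.16 (R 4.3.3) with TMM factors, filterByExpr by line and quasi-likelihood tests, two-sided, with Benjamini-Hochberg adjustment over all genes tested. The 6 lines were also compared in 1 fit. SE is the absolute log2 fold change over the root of F. Scripts were tested on simulated counts. Alternatives were other size factors, DESeq2 1.42.0 (the study's tool), other filters, 1 fit of 16 samples, a minimum log2 fold change of 1, a replicate block and leaving out each sample. Replicate pairs of a line differed by 1.87 to 14.3 times the counting noise, so none was a duplicate. The genes and lists were chosen with earlier results of these data known. Named are the 10 genes, AJUBA, up to 3 called genes per list and direction, and the 5 genes most like EPHA2. The neighbours of EPHB6 were named after their values were seen. One promoter sequence is not reported here.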

Additional observations from a re-analysis of the deposited data

Results flagged for a closer look

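In 6 of the 10 genes the knockdown lines differed from each other, tested directly in shAjuba1 against shAjuba2 (edgeR, Benjamini-Hochberg). EFNB2 was lower in shAjuba1 by a log2 difference of -1.19 (adjusted p = 0.000195), EPHA4 by -0.85 (adjusted p = 0.000594), EPHA1 by -0.49 (adjusted p = 0.0471) and EFNA1 by -0.41 (adjusted p = 0.0447), each in 3 of 3 samples of shAjuba1 against the mean of shAjuba2. EPHB2 was higher in shAjuba1 by 0.67 (adjusted p = 0.0102) and EFNB1 by 0.43 (adjusted p = 0.0216), again in 3 of 3 samples. The differences of EFNB2, EPHA4 and EPHB2 stayed past the threshold in every alternative other than a minimum log2 fold change of 1, which only EFNB2 passed. Those of EPHA1, EFNA1 and EFNB1 were lost when most single samples were left out, with adjusted p up to 0.216, 0.168 and 0.112. AJUBA did not differ past the threshold between the lines (-0.26, adjusted p = 0.141), and what the differences come from was not tested.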

How the results depend on the processing

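The following holds for the number of the 10 genes called. It was 10 across the 6 lines and 0 in Control against Parental under every alternative run. In shAjuba1 against shScrambled (9) it lay between 6 and 10 except at a minimum absolute log2 fold change of 1, where it was 0. With EPHA2, EPHB4 and EPHB3 near the threshold, the number in shAjuba2 against shScrambled (1) was 3 with library size alone, 2 with DESeq2's size factors, 3 with DESeq2, 2 with every gene of at least 1 count, 4 with all 16 samples in 1 fit, 0 at a log2 fold change of 1 and 2 with Parental as the control line. It was 0 to 5 when single samples were left out, 5 without shAjuba2 replicate 2 and 0 without shScrambled replicate 1, shScrambled replicate 2 or shAjuba2 replicate 1. In Ajuba OE against Control (1) it was 2 with DESeq2, 3 with all 16 samples, 3 without replicate 2 of both lines and 2 with Parental as the control line. In shAjuba1 against shAjuba2 (6) it was 1 at a log2 fold change of 1 and 3 to 7 with single samples left out, 3 without any 1 sample of shAjuba1 or without shAjuba2 replicate 1. In shScrambled against Parental (5) it was 3 with all 16 samples, 0 at a log2 fold change of 1 and 2 to 4 with single samples left out, 2 without shScrambled replicate 2 and 3 without Parental replicate 2. A fit without 1 of 2 samples takes the spread from the other line. The number called over all genes changed with the setting too, and fits with 1 shScrambled sample called fewer genes. In shAjuba2 against shScrambled the main fit called 1713 of 22446 genes, and the fit of all 16 samples 3672 of 23597. Without shAjuba2 replicate 2 it was 4983 of 21969, and without shAjuba2 replicate 1 it was 492 of 21993. In shScrambled against Parental the main fit called 6526 of 21289 genes, and the fit of all 16 samples 1696 of 23597. In Ajuba OE against Control these numbers were 1147 of 21140 and 2386 of 23597. In shAjuba1 against shAjuba2 the main fit called 4232 of 21600, and 2177 of 22149 were called without shAjuba1 replicate 1. The cause of these changes was not tested. Leaving out replicate 2 of both lines and the log2 fold changes against Parental were chosen after seeing the data.

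Deviations of samples with equal replicate numbers had correlations of -0.131 to 0.505, the highest for replicate 2 of Ajuba OE and Control. The main fits used no pairing. With the replicate block the number called was 4 in shAjuba2 against shScrambled, 5 in Ajuba OE against Control and 3 in shAjuba1 against shAjuba2. Over all genes the block called 5377 of 22446, 5140 of 21140 and 2937 of 21600 in these comparisons. Without the block the numbers were 1713, 1147 and 4232.

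Log2 fold changes changed sign in 32 cases, mostly near 0. Against Parental they were 0.034 for EFNA1 and -0.21 for EFNB1 in shAjuba1, both called against shScrambled, -0.0060 for EPHA1, 0.19 for EPHA4, -0.15 for EPHB2, 0.46 for EFNA1 and -0.63 for EFNB1 in shAjuba2, and -0.039 for EPHB2 and -0.10 for EPHB4 in Ajuba OE. With library size alone they were 0.019 for EPHA4 in shAjuba2, and -0.037 for EFNA1 and -0.0024 for EFNB2 in Ajuba OE. In Control against Parental, EFNB2 was -0.0080 with DESeq2's size factors, -0.029 with DESeq2, -0.0083 with every gene of at least 1 count and -0.018 with all 16 samples, and EPHA4 was -0.011 with DESeq2 and -0.00048 with all 16. With single samples left out, the ranges that crossed 0 were -0.065 to 0.012 for EPHA4 and -0.011 to 0.16 for EPHB6 in shAjuba2, -0.11 to 0.17 for EFNA1, -0.00093 to 0.17 for EPHB4 and -0.0024 to 0.16 for EFNB2 in Ajuba OE, -0.085 to 0.13 for EPHA2 and -0.027 to 0.095 for EPHB6 in shScrambled against Parental, and -0.053 to 0.19 for EPHB3, -0.056 to 0.048 for EFNB2 and -0.19 to 0.11 for EFNB1 in Control against Parental.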
